A study of Homo sapiens with 15 samples.

Results

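The expression of 9795 rows of a deposited gene table was compared directly between a pair of CRISPR activation groups in HEK293FT, an established human cell line derived from embryonic kidney. The groups are the libraries titled trex5008 and those titled trex8168. Rows were kept where the mean over all 15 libraries of the study was at least 50 normalised counts, which held for 9795 of the 11230 rows listed. Each group had 3 libraries, described as biological triplicates. All cells of the study, the controls included, were transfected with dCas9-VP64, an activator of MS2, p65 and HSF1, and 5 guide RNAs. In the trex groups the guides sit 50 to 450 bp upstream of the start of a TrEx long non-coding RNA, and in the control they are non-targeting. Puromycin was given at 2 ug/mL at 24 hours after transfection, and RNA was taken at 48 hours. The remaining groups, used here only for their levels, are titled trex0108 and trex4039 and are labelled as targeting TrEx108 and TrEx4039.

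The names of the groups need care. Libraries titled trex5008 carry the target label TrEx8168, and libraries titled trex8168 carry the target label TrEx5008. The table uses the spelling of the titles, so the groups are named here by title, and which RNA was targeted in which of them was not settled.

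In CRISPR activation a Cas9 without nuclease activity carries transcriptional activators to a promoter chosen by the guides, and the gene there is transcribed more. Long non-coding RNAs are transcripts without a known protein product; some act on genes close to their own locus and others at a distance. A direct comparison of a pair of such groups asks how the cells differ when the same activator machinery is sent to different loci, without reference to the control. Because only 1 mean per group was used and it comes with no spread, every difference between the groups is given as a size, with no test and no SD, and none can be set against the spread between the 3 libraries. The depth of the libraries is unknown. The samples are bulk RNA, in which fewer cells expressing a gene and less of its RNA per cell cannot be told apart.

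The largest difference was in the long intergenic non-coding RNA RP11-71N10.1 (chromosome 3, 147657714 to 147724914, hg19). Its mean normalised count was 1285 in trex5008 and 2.32 in trex8168. The other groups were near the lower of these values, with 4.51 in control, 5.37 in trex0108 and 4.51 in trex4039. The log2 ratio of trex5008 over trex8168, taken throughout as log2 of both means after adding 1, was 8.60. Since the lower mean is so small, the size depends on what is added to it: the log2 ratio was 9.05 when 0.1 was added and 6.71 when 10 was added.

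Among rows compared, the largest difference the other way was in the long intergenic non-coding RNA AC116609.2 (chromosome 2, 739816 to 751712, hg19). Its mean was 138 in trex5008 and 3908 in trex8168, a log2 ratio of -4.81. Unlike RP11-71N10.1, this RNA had a sizeable level in every group, with 163 in control, 150 in trex0108 and 331 in trex4039. Its log2 fold change against control in the authors' deposited table was 4.23 in trex8168, with an adjusted p listed as 0, and -0.17 in trex5008 (adjusted p = 0.179). For RP11-71N10.1 the authors' deposited table gives 5.56 in trex5008, with an adjusted p listed as 0, and 0.004 in trex8168 (adjusted p = 0.991). The deposited fold changes are not the log2 ratios of the group means and can be smaller. For RP11-71N10.1 they differed by 5.55 between trex5008 and trex8168, beside 8.60 from the means. Their sizes are therefore not on the scale of the ratios given here.

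The transcript that GENCODE v29 lists under the name AC116609.2 is shown because the row of that name had the lowest log2 ratio among rows compared. It was matched to the row by name only and is far shorter than the locus given above. Whether it is the RNA counted there was not checked. It is 256 bases long with a GC content of 51.2%, printed 5′ to 3′ with no part marked:
AC116609.2-201: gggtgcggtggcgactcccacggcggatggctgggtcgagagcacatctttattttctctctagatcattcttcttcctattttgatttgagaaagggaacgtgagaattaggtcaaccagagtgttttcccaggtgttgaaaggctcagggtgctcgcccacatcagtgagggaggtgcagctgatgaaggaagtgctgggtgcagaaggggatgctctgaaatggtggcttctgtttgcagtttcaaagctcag

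The table lists nothing within 500 kb of the RP11-71N10.1 locus. Within 500 kb of AC116609.2 there were 2 rows. The nearer, AC116614.1 at a distance of 193 kb, had means of 187 in trex5008 and 228 in trex8168, a log2 ratio of -0.28. The farther, XLOC_032422 at a distance of 435 kb, had means of 4254 and 4100, a log2 ratio of 0.05. Neither neighbour was past 1.5-fold, while AC116609.2 itself differed 28.1-fold. Only rows with an adjusted p under 0.1 in some comparison are listed, so other genes near these loci were not judged.

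Over all 9795 rows the groups were close. The median log2 ratio was -0.01, the quartiles were -0.18 and 0.12, and 95% of rows lay between -0.44 and 0.34. A total of 31 rows were at least 1.5-fold higher in trex5008, 0.316% of those compared, and 82 were at least 1.5-fold higher in trex8168, 0.837%. This excess towards trex8168 depends on the minimum mean: with a minimum of 10 the counts were 223 higher in trex5008 and 144 higher in trex8168, and with no minimum 290 and 170. At a limit of 2-fold the counts were 4 (0.0408%) and 17 (0.174%). Among the 10 possible pairs of the 5 groups, the number of rows past 1.5-fold ran from 109 to 700, and the 113 of trex5008 against trex8168 ranked 9 from the largest. Both limits cut through a continuous range. Just inside 1.5-fold were XLOC_063521 at 0.59 and PEAR1 at -0.59, and just outside were STMND1 at 0.57 and CGA at -0.58. Just inside the minimum mean was CATG00000060205.1 with 50.01 and a log2 ratio of -0.17, and just outside RP5-940J5.3 with 49.95 and 0.08.

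**Figure D1:**
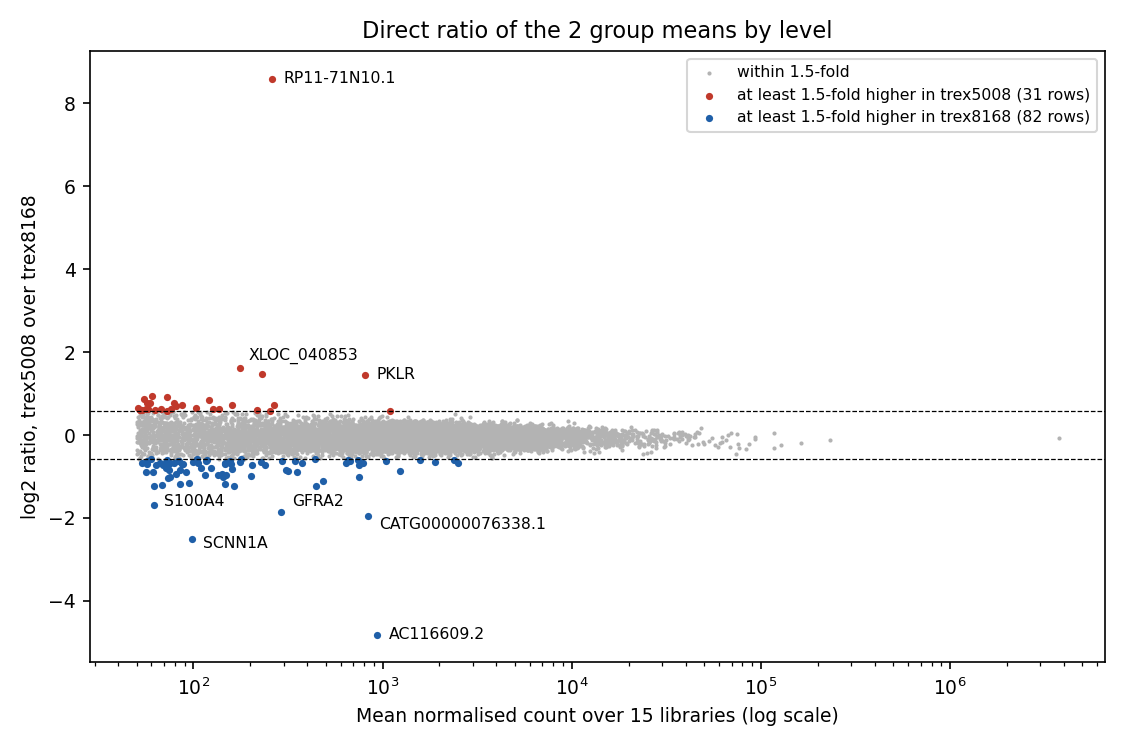
Log2 ratio of trex5008 over trex8168 (vertical axis) against the mean normalised count over 15 libraries (horizontal axis, log scale) for the 9795 rows compared, 1 point a row; dashed lines mark 1.5-fold. RP11-71N10.1 and AC116609.2 stand far from all other rows, and the 31 red and 82 blue points past the limit lie mostly at low means.

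Low means carried most of the rows past the limit. Of the 564 rows with a mean of 50 to 100, 18 were past 1.5-fold towards trex5008 and 32 towards trex8168. Of the 1374 rows with a mean of 5000 or more, 0 were past it in either direction. A mean under 200 was found in 24 of the 31 rows and 53 of the 82 rows, and in 12.4% of all rows compared. The row with the highest mean that has a gene name, EEF1A1, the elongation factor that brings aminoacyl-tRNA to the ribosome, had means of 237320 and 256590 and a log2 ratio of -0.11.

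A second property of the genes moved with the ratio, and its values belong beside every group of genes. Transcript GC content, the median over the transcripts of a gene in GENCODE v29, was found for 5947 of the 6972 protein-coding rows (85.3%). Over 5 bins of equal size, from the rows of lowest GC content to those of highest, the median log2 ratio went 0.14, 0.09, 0.006, -0.16 and -0.26. In the first bin 94.2% of rows were above 0, and in the last 3.36%. Across genes the Pearson correlation was -0.73 and the Spearman correlation -0.78; genes share libraries and are not independent replicates. The same relation within each group's ratio to control had a Spearman correlation of -0.79 for trex5008 and -0.28 for trex8168, both sharing the control libraries. Its part in the differences below was not tested. A value without the GC trend, computed over these protein-coding rows with a smooth curve removed, is therefore given for the lists and for most of the protein-coding rows described.

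**Figure D2:**
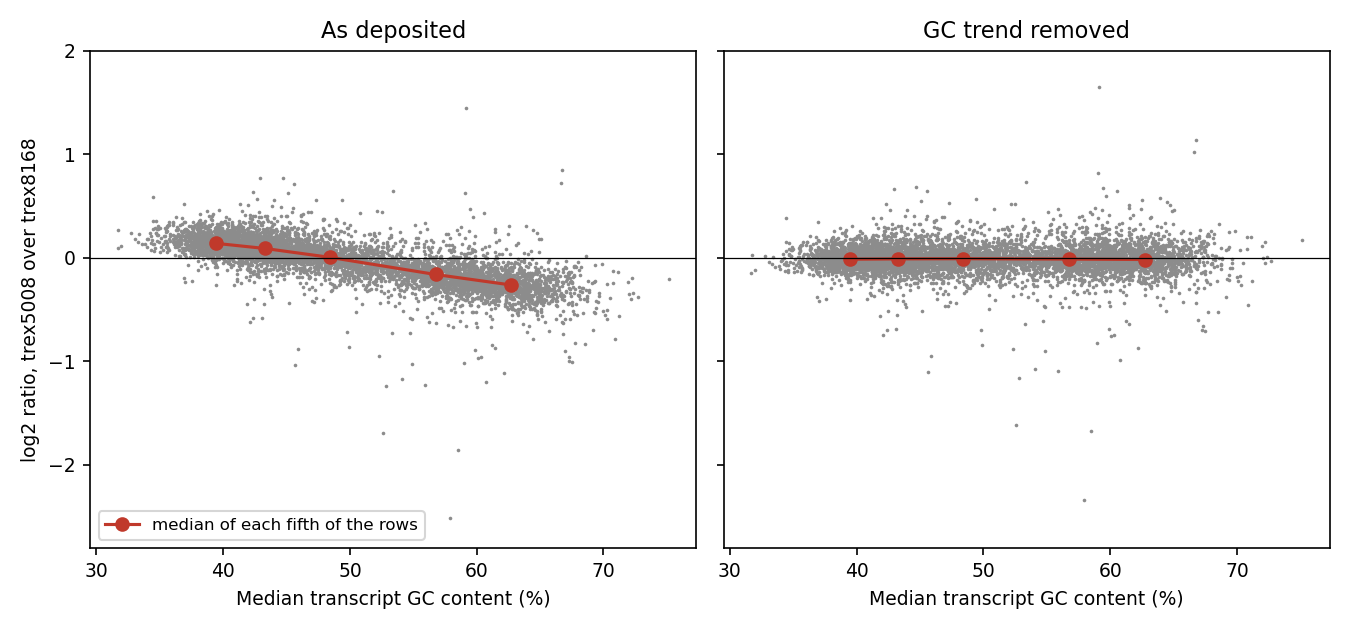
Log2 ratio of trex5008 over trex8168 (vertical axis) against median transcript GC content in percent (horizontal axis) for 5947 protein-coding rows, as deposited (left) and after removal of a smooth trend (right); red points are the medians of 5 bins of equal size. The medians run from 0.14 down to -0.26 on the left and stay close to 0 on the right.

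Removing the trend narrowed the distribution of these rows from an interquartile width of 0.297 to 0.139. Of the 11 such rows past 1.5-fold towards trex5008, 8 stayed past it and 11 were past it in all afterwards. Of the 57 past it towards trex8168, 27 stayed and 29 were past it in all afterwards. The median GC content of the rows past the limit was 45.6% for those higher in trex5008, from 13 rows with a value, and 60.2% for those higher in trex8168, from 60 rows, beside 48.5% over all rows with a value. GC content was found for only 63.8% of all rows compared, so the check is void for the table as a whole and was made on protein-coding rows alone.

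Among genes higher in trex5008, PKLR stood first. PKLR encodes the pyruvate kinase of liver and red blood cells, the enzyme of the last step of glycolysis. Its mean was 1255 in trex5008 and 458 in trex8168, a 2.74-fold difference with a log2 ratio of 1.45. Its ratio without the GC trend was 1.65. The other groups had means of 404 in control, 590 in trex0108 and 1320 in trex4039, so trex5008 lay near trex4039 and trex8168 near control. Its log2 fold change against control, from the authors' deposited table, was 0.84 in trex5008 (adjusted p = 1.32e-07) and 0.08 in trex8168 (adjusted p = 0.77).

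No other gene of the glycolysis and hypoxia list was past 1.5-fold: 1 of 13 members compared was past it, and the median of the list was -0.12. Of the phosphofructokinases, which catalyse the committed step of glycolysis, PFKL and PFKP lay on the other side of 0, at -0.35 and -0.24. Without the GC trend these were -0.09 and -0.06. Both were named for lying in the direction of the list median, and PFKM, also in the list, is not described. PKLR is transcribed from alternative start sites, 1 used in red blood cells and 1 in liver. The bases before both starts are shown because PKLR is the protein-coding gene with the highest ratio; they come from RefSeq on GRCh38.p14, on the minus strand, with the 50 bases nearest the start in capitals. The first window is chr1:155301439-155301688, with a GC content of 46.0%, and the second is chr1:155300953-155301202, with 57.6%. The deposited table gives 1 value for the whole row, so it cannot tell which start was in use.
PKLR start 1: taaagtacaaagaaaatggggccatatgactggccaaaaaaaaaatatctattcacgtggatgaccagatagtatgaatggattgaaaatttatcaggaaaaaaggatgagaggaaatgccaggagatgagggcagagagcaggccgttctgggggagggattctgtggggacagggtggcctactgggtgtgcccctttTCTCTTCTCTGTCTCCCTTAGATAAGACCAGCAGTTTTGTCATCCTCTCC
PKLR start 2: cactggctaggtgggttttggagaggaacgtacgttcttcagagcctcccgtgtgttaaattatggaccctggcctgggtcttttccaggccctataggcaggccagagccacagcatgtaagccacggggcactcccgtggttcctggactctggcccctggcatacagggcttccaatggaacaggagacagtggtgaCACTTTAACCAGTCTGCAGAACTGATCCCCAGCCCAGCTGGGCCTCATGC

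A pattern like that of PKLR, with trex5008 and trex4039 high together, was seen in several rows. XLOC_040853, a locus of no annotated type on chromosome 22 (22929664 to 22930281, hg19), had means of 275 in trex5008, 263 in trex4039, 157 in trex0108, 93.2 in control and 88.7 in trex8168. CATG00000034574.1 on chromosome 17 (73198551 to 73201464, hg19) had 369, 347, 184, 118 and 133 in the same order of groups. RNU5E-1, named for a copy of the U5 small nuclear RNA of the spliceosome, had 75.9, 75.3, 47.5, 32.6 and 41.2. In each of these the trex5008 and trex4039 means lay close together and above the other groups. Their log2 ratios of trex5008 over trex8168 were 1.62, 1.46 and 0.87. Against control in trex5008, the authors' deposited table gives these 3 rows log2 fold changes of 0.74, 0.73 and 0.66, with adjusted p of 3.91e-06, 4.8e-06 and 4.14e-05. The corresponding values of the authors' deposited table in trex8168 were -0.02, 0.07 and 0.17, with adjusted p-values of 0.949, 0.819 and 0.466. The row RNU5E-1 spans 11968196 to 11971941 on chromosome 1, far more than a small nuclear RNA, so what was counted there is uncertain.

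The remaining genes higher in trex5008 differed by less than 2-fold. The row named WDR34, 1 of 2 rows of that name, had means of 165 and 91.5 and a log2 ratio of 0.85. That name stands for an intermediate chain of the dynein that moves cargo in cilia. GPR158, an orphan G protein-coupled receptor of the brain, had means of 92.8 and 53.8 and a ratio of 0.78, or 0.67 without the GC trend. ZNF280A, a zinc finger gene, had 67.4 and 39.2 and a ratio of 0.77, or 0.69 without it. In WDR34 and GPR158 the control, at 134 and 85.6, lay nearer to trex5008, and in the authors' deposited table both were lower in trex8168 than in control (adjusted p = 0.0339 and 0.0152). Neither passed 0.05 in trex5008 in the authors' deposited table (adjusted p = 0.163 and 0.672).

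LIMD2, a small LIM domain protein, had means of 116 and 69.8 and a ratio of 0.73, or 1.02 without the GC trend. KCNA1, the voltage-gated potassium channel Kv1.1, had 215 and 131, with 126 in control, and a ratio of 0.71, or 0.64 without the trend. The log2 fold change of KCNA1 against control in the authors' deposited table was 0.63 in trex5008 (adjusted p = 2.93e-07) and 0.05 in trex8168 (adjusted p = 0.833). ST8SIA6, a sialyltransferase of the Golgi, had 155 and 99.1 and a ratio of 0.64, or 0.52 without the trend, which is within 1.5-fold. The pseudogene EFTUD1P1 had 360 and 217 and a ratio of 0.73; its reads can be shared with its parent gene.

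Names of loci are the authors' own and do not always match the extent of the gene. The row named HDLBP, at 0.64, spans 10.47 kb where the GENCODE v29 gene of that name spans 89.8 kb, and the row named MCL1, at 0.63, spans 11.58 kb where the gene spans 5.19 kb. Their ratios without the GC trend were 0.73 and 0.55, the latter within 1.5-fold. Of the rows past the limit whose name matched, the row spanned less than 0.5 of the gene for 1 of 11 higher in trex5008 and 1 of 54 higher in trex8168. It spanned over double for 4 and 12 of these. Leading rows are among these: PKLR spans 24.91 kb against 12.15 kb for the gene, KCNA1 21.46 against 8.35, GFRA2 447.24 against 121.96, FAM131B 49.74 against 9.37, MEX3B 11.91 against 4.36 and INPP5J 28.77 against 11.97. HES7, GRM4 and GPER1 also span over double. The values given for all of these are values of the rows. Other transcripts inside a row cannot be told apart from the gene it is named for. Only lengths were compared, so a like length does not show that a row lies on the gene. Some names are carried by more than 1 row: HDLBP by 3, and MCL1, WDR34, NRTN and PFKP by 2 each.

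Of the 82 rows higher in trex8168, 61 were annotated as protein-coding (74.4%), near the 71.2% of all rows compared; of the 31 higher in trex5008 it was 11 (35.5%). SCNN1A, the alpha subunit of the epithelial sodium channel through which kidney and lung epithelia take up sodium, came first among the protein-coding rows compared. Its mean was 43.9 in trex5008 and 255 in trex8168, a 5.70-fold difference with a log2 ratio of -2.51. Means in control, trex0108 and trex4039 were 68.3, 60.1 and 63.4, so the trex8168 mean stood apart from all other groups. Without the GC trend the ratio was -2.34. For SCNN1A against control, the authors' deposited table has a log2 change of 1.45 in trex8168 (adjusted p = 1.59e-26) and -0.37 in trex5008 (adjusted p = 0.0204).

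GFRA2, the co-receptor through which the growth factor neurturin signals, had a mean of 177 in trex5008 and 641 in trex8168, a log2 ratio of -1.85. S100A4, a calcium-binding protein linked to cell motility, had 39.5 and 130, a ratio of -1.69. In both, the other groups lay near trex5008: 190, 217 and 224 in control, trex0108 and trex4039 for GFRA2, and 43.0, 49.4 and 48.3 for S100A4. Without the GC trend the ratios were -1.67 and -1.62. Their log2 fold changes in trex8168 against control, as the authors' deposited table gives them, were 1.53 (adjusted p = 6.09e-49) and 1.10 (adjusted p = 2.31e-13). For trex5008 the authors' deposited table has -0.08 (adjusted p = 0.613) and -0.06 (adjusted p = 0.802) for the same genes.

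Shown next are the bases before the RefSeq start of S100A4, which passed the minimum mean of 50 only through trex8168. They lie at chr1:153545807-153546056 on GRCh38.p14, minus strand, with a GC content of 62.8% beside a median of 58.0% over all 35116 entries of the promoter table. The 50 bases nearest the start are in capitals:
S100A4 start 1: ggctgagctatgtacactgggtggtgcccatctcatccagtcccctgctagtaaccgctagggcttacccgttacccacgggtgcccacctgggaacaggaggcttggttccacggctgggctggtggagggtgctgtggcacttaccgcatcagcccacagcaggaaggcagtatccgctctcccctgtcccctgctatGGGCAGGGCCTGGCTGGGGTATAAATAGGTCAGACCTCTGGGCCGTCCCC

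CATG00000076338.1, a locus of no annotated type on chromosome 1 (152077685 to 152118401, hg19), had means of 479 in trex5008 and 1873 in trex8168, a log2 ratio of -1.96. Its means in control, trex0108 and trex4039 were 623, 613 and 576. Among rows compared that are known only by an identifier, this was the largest difference towards trex8168. XLOC_032299 on chromosome 19 followed with 112 and 263, a ratio of -1.23, and CATG00000091811.1 on chromosome 7 with 67.9 and 154, a ratio of -1.17.

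**Figure D3:**
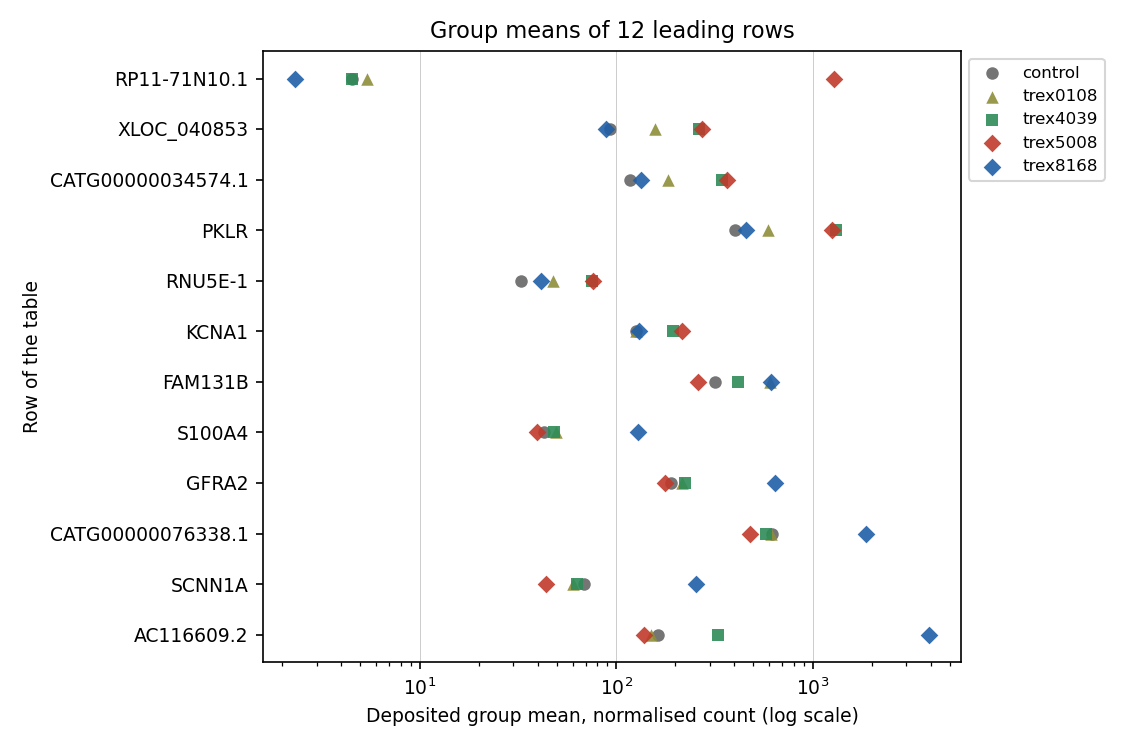
Deposited group means in normalised counts (horizontal axis, log scale) for 12 of the leading rows (vertical axis), with 1 symbol for each of the 5 groups. Red trex5008 and green trex4039 symbols lie close together in XLOC_040853, CATG00000034574.1, PKLR and RNU5E-1, whereas blue trex8168 stands alone at the right in SCNN1A, GFRA2, S100A4, CATG00000076338.1 and AC116609.2.

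Further rows past the limit are described by what their genes encode, starting with ligands and receptors. FAM150A, a secreted ligand of the receptor kinases ALK and LTK, had means of 48.1 in trex5008 and 115 in trex8168, a ratio of -1.24. CRHR2, a receptor for urocortins of the corticotropin-releasing hormone family, had 50.2 and 102, a ratio of -1.01. GRM4, a metabotropic glutamate receptor, had 70.7 and 139, a ratio of -0.97. These 3 ratios were -1.16, -0.82 and -0.76 without the GC trend. FAM150A had in the authors' deposited table an adjusted p under 0.05 in trex8168 (0.000328) and not in trex5008 (0.213). CRHR2 and GRM4 passed 0.05 in the authors' deposited table in trex5008 (0.0298 and 0.00434) and not in trex8168 (0.0754 and 0.0691).

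PLXNA4, a plexin that binds semaphorins in growing axons, had 55.9 and 109, a ratio of -0.95. FAT3, a giant cadherin, had 314 and 578, a ratio of -0.88, and CLMP, an adhesion protein of epithelial junctions, had 261 and 474, a ratio of -0.86. FAT3 and CLMP have transcripts near the middle of the GC range, at 45.9% and 49.9%, and without the GC trend their ratios were -0.94 and -0.84. TGFB3, a transforming growth factor beta, had 637 and 1055, a ratio of -0.73. The adrenergic receptor ADRA2B had 30.5 and 57.5, a ratio of -0.89, and the oestrogen-binding receptor GPER1 had 231 and 415, a ratio of -0.84. All of these were higher in trex8168 with the trend removed as well, at -0.88 for PLXNA4, -0.64 for TGFB3, -0.68 for ADRA2B and -0.61 for GPER1.

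SV2C, a glycoprotein of synaptic vesicles, had 55.6 and 115, a ratio of -1.03. MEX3B, an RNA-binding protein with KH domains, had 531 and 1078, with 687 in control, a ratio of -1.02. CSDC2, an RNA-binding cold shock domain protein, had 366 and 791, a ratio of -1.11. SV2C, MEX3B and CSDC2 had ratios of -1.10, -0.90 and -0.87 without the GC trend. MEX3B was in the authors' deposited table lower than control in trex5008 (log2 fold change -0.33, adjusted p = 0.000977) and higher in trex8168 (0.59, adjusted p = 1.82e-09).

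DUSP13, a dual-specificity phosphatase, had 49.4 and 115, a ratio of -1.20. PAMR1, a secreted protein with a peptidase-like domain, had 108 and 245, a ratio of -1.17. FAM131B had 261 and 613, with 605 in trex0108, 416 in trex4039 and 319 in control, a ratio of -1.23. INPP5J, an inositol polyphosphate phosphatase, had 913 and 1672, a ratio of -0.87, with 1284 in control. Without the trend the ratios of DUSP13, PAMR1, FAM131B and INPP5J were -0.98, -1.07, -1.09 and -0.64.

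Transcription factors past the limit in this direction included IRX4, a homeobox factor of heart ventricles, with 115 and 233 and a ratio of -1.01. HES7, a repressor of the NOTCH pathway that oscillates in the forming somites, had 151 and 303 and a ratio of -0.998. Both were at -0.70 without the GC trend. GATA2, a zinc finger factor of blood and endothelial cells, had 1994 and 3002 and a ratio of -0.59, or -0.32 without the GC trend. ID1, an inhibitor of basic helix-loop-helix factors and a target of BMP signalling, had 614 and 975.2 with 776 in control, a ratio of -0.67, or -0.49 without the trend. GATA2 and ID1 are thus within 1.5-fold once the trend is removed. The row named ID1 spans 26.7 kb where the gene spans 1.23 kb, so what was counted there is uncertain.

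The row named hsa-mir-125a is annotated as a long intergenic non-coding RNA (chromosome 19, 52185937 to 52196681, hg19), so it measures a longer transcript and not the mature microRNA. It had means of 22.4 in trex5008 and 51.8 in trex8168, with 58.1 in control and 250.3 in trex0108, and a ratio of -1.17. Here it was trex5008 that stood below control, not trex8168 that stood above it. The authors' deposited table gives it a log2 fold change of -0.72 in trex5008 (adjusted p = 3.63e-06) and -0.10 in trex8168 (adjusted p = 0.682). HES5, a NOTCH target of neural progenitors, was also below control in trex5008, with means of 133, 201 and 246 in trex5008, trex8168 and control. Its ratio was -0.59, or -0.30 without the GC trend.

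CATG00000005887.1 is past the limit only in form. Its means were 0.37 in trex5008 and 1.17 in trex8168, and it reached the minimum through 393 in trex0108. Both means under 50 were found in 1 of the 31 rows, 1 of the 82 and 43 of all 9795.

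Rows past the limit lay within 100 kb of each other in 6 pairs, and in 6 of 6 pairs both rows differed in the same direction. As 82 of the 113 rows past the limit were higher in trex8168, like directions are common among them wherever they lie. The share over pairs far apart was not computed, so the 6 pairs are a description. Of these pairs, 3 overlap: SCNN1A with LTBR (the lymphotoxin beta receptor, -0.96), CRHR2 with CATG00000091811.1, and HES5 with RP3-395M20.12 (-0.68). Whether counting used strand is unknown here; reads of overlapping rows therefore cannot be told apart. The other pairs were CLEC11A with KLK1 at 82.2 kb, SSC5D with SBK3 at 17.3 kb, and ZNF280A with XLOC_040853 at 54.6 kb. LTBR had means of 106 in trex5008 and 206 in trex8168, and 106 in control.

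Among the 5 groups, trex8168 was often at the top in rows higher there and trex5008 often at the bottom. The trex8168 mean was the highest of the 5 in 61 of the 82 rows higher there (74.4%), and in 21.1% of all rows compared. The trex5008 mean was the lowest in 54 of these 82 (65.9%), and in 12.3% of all rows. Of the 31 rows higher in trex5008, it was the highest group in 18 (58.1%, against 11.3% of all rows), and trex8168 was the lowest in 17 (54.8%, against 9.74%). The way the rows were picked raises each of these shares, so they describe the rows and are not a test. The control lay between both groups in 66 of the 82 rows (80.5%) and in 16 of the 31 (51.6%), against 26.3% of all rows. Picking rows whose group means lie apart raises these shares too.

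By the authors' deposited table, with adjusted p-values under 0.05 counted, 41 of the 82 rows were higher than control in trex8168, where 15.7% of all rows compared were. By the same measure of the authors' deposited table, 41 of the 82 were lower than control in trex5008, where 25.1% of all rows were. Of the 31 rows, the authors' deposited table calls 11 higher in trex5008, where 31.9% of all rows compared are, and 11 lower in trex8168, where 5.68% are. The share of 11 in 31 higher in trex5008 is near that background. These comparisons share their control libraries. The rows were picked on means of the same trex5008 and trex8168 libraries that enter these calls. That can raise the shares by itself, so they describe the rows and are not a test.

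List medians were small. Of 36 lists with at least 6 members that have a GC content, 17 had a median at least 0.1 from 0, and 4 after the GC trend was removed; 9 medians came to lie on the other side of 0. Over all rows compared the median was -0.01, and 48.3% were above 0. Past 1.5-fold were 0.316% towards trex5008 and 0.837% towards trex8168. In the GC bins of protein-coding rows, the share above 0 ran from 94.2% at the lowest GC content to 3.36% at the highest. The counts above and below 0 in the lists were not set against rows of like GC content, so they are descriptions. Most members of each of the 36 lists were within 1.5-fold.

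Lists with lower medians held developmental and signalling genes. Markers of neural crest, choroid plexus and cortical hem had a median of -0.31, with 0 of 6 members above 0, and -0.13 without the trend. In it, the growth factor BMP7 was at -0.39 and the neural crest factor FOXD3 at -0.38, or -0.18 and -0.11 without the trend. The list of TGF-beta and BMP targets and regulators had a median of -0.28 and -0.13 without the trend, with 18 of 23 rows below 0 and 1 past 1.5-fold, ID1. Within it the BMP targets ID1 and ID3 were at -0.67 and -0.49, and the antagonist NOG at -0.46, or -0.49, -0.32 and -0.26 without the trend. Its members above 0 included the receptors BMPR2 at 0.32 and BMPR1B at 0.24, each at 0.16 without the trend.

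The list of NOTCH receptors and targets had a median of -0.21, with 13 of 15 members below 0 and 2 past 1.5-fold, HES7 and HES5. The list member HES6 was at -0.55, the ligand DLL4 at -0.52 and the receptor NOTCH3 at -0.47. HES7, at -0.70 without the GC trend, was still past 1.5-fold, while HES5 at -0.30 was not. HES6, DLL4 and NOTCH3 were then at -0.23, -0.32 and -0.26. The median of the list was then -0.08. RBPJ, the DNA-binding factor through which NOTCH acts, was at 0.13, or 0.01 without the trend. Radial glia and neural progenitor markers had a median of -0.26, with 8 of 10 members below 0 and 2 above, the highest at 0.21. In this list HES5 was past the limit, with HES1 at -0.44 and LHX2 at -0.44. That list's median without the trend was -0.14, with HES1 at -0.40 and LHX2 at -0.22.

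Extracellular matrix genes had a median of -0.21, with 29 of 32 members below 0, and EMILIN1, a glycoprotein of elastic fibres, as the 1 member past 1.5-fold (120 and 233, -0.96). Without the trend the median was -0.04 and EMILIN1 was at -0.66. Axon guidance genes had a median of -0.24, with 28 of 33 below 0 and 2 past 1.5-fold, PLXNA4 and SEMA3G, and -0.03 without the trend. SEMA3G was then at -0.39 and no longer past the limit. Homeobox, SOX and forkhead factors had a median of -0.19, with 42 of 49 below 0, and -0.04 without the trend. IRX4 was the 1 member past the limit, followed by PAX1 at -0.50, or -0.25 without the trend.

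The ion channel list held members past 1.5-fold in both directions. SCNN1A, the potassium channel KCNH3 (149 and 246, -0.72) and the ATP-gated channel P2RX2 (52.2 and 83.4, -0.66) were higher in trex8168, and KCNA1 was higher in trex5008. KCNH3 and P2RX2 without the GC trend were at -0.45 and -0.44, within 1.5-fold, and SCNN1A and KCNA1 stayed past it. The list median was -0.17 over 57 members and 0.01 without the trend. Of the list of GDNF and neurotrophin receptors and ligands, GFRA2 was past the limit. NRTN, which encodes the ligand neurturin of that receptor, had means of 146 and 208 and a ratio of -0.51, or -0.19 without the trend, and the neurotrophin receptor NTRK2 had a ratio of 0.41.

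Kidney epithelium markers, for the tissue of origin of the line, were listed for 7 of 22 symbols. KRT8 had means of 4356 and 5013, GATA3 1202 and 1397, and PAX2 282 and 373. The median of the 7 was -0.20 and -0.03 without the trend, with SCNN1A the 1 past the limit. Of 18 markers of fibroblasts, endothelium and blood, 1 was compared, LUM with 242 and 223. The table lists only rows that differed in some comparison, so markers missing from it were not judged.

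ZNF zinc finger genes, most of which encode repressors that bind DNA, had the highest median, 0.13, with 107 of 147 members above 0 and 1 past 1.5-fold, ZNF280A. Without the GC trend their median was 0.08. ZNF66 was at 0.42 and ZNF615 at 0.42, with means of 137 and 102 for ZNF66 and 1076 and 805 for ZNF615; without the trend they were at 0.27 and 0.30. Replication-dependent histones, measured here only in RNA selected by polyA, had a median of 0.11, with 6 of 8 above 0, and 0.18 without the trend. The p53 targets had 0.10, with 8 of 13 above 0, and 0.045 without the trend. In the p53 list ZMAT3 was at 0.45 and RRM2B, a ribonucleotide reductase subunit, at 0.29, or 0.52 and 0.16 without the trend.

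Lists of mitosis and heat shock genes changed side. Mitosis and kinetochore genes had a median of 0.08, with 23 of 31 above 0, and -0.04 without the trend. Heat shock and chaperonin genes had 0.08, with 21 of 27 above 0, and -0.02. Ubiquitin and proteasome genes went from 0.06 to -0.02 in the same way, and kinesins from -0.10 to 0.02.

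**Figure D4:**
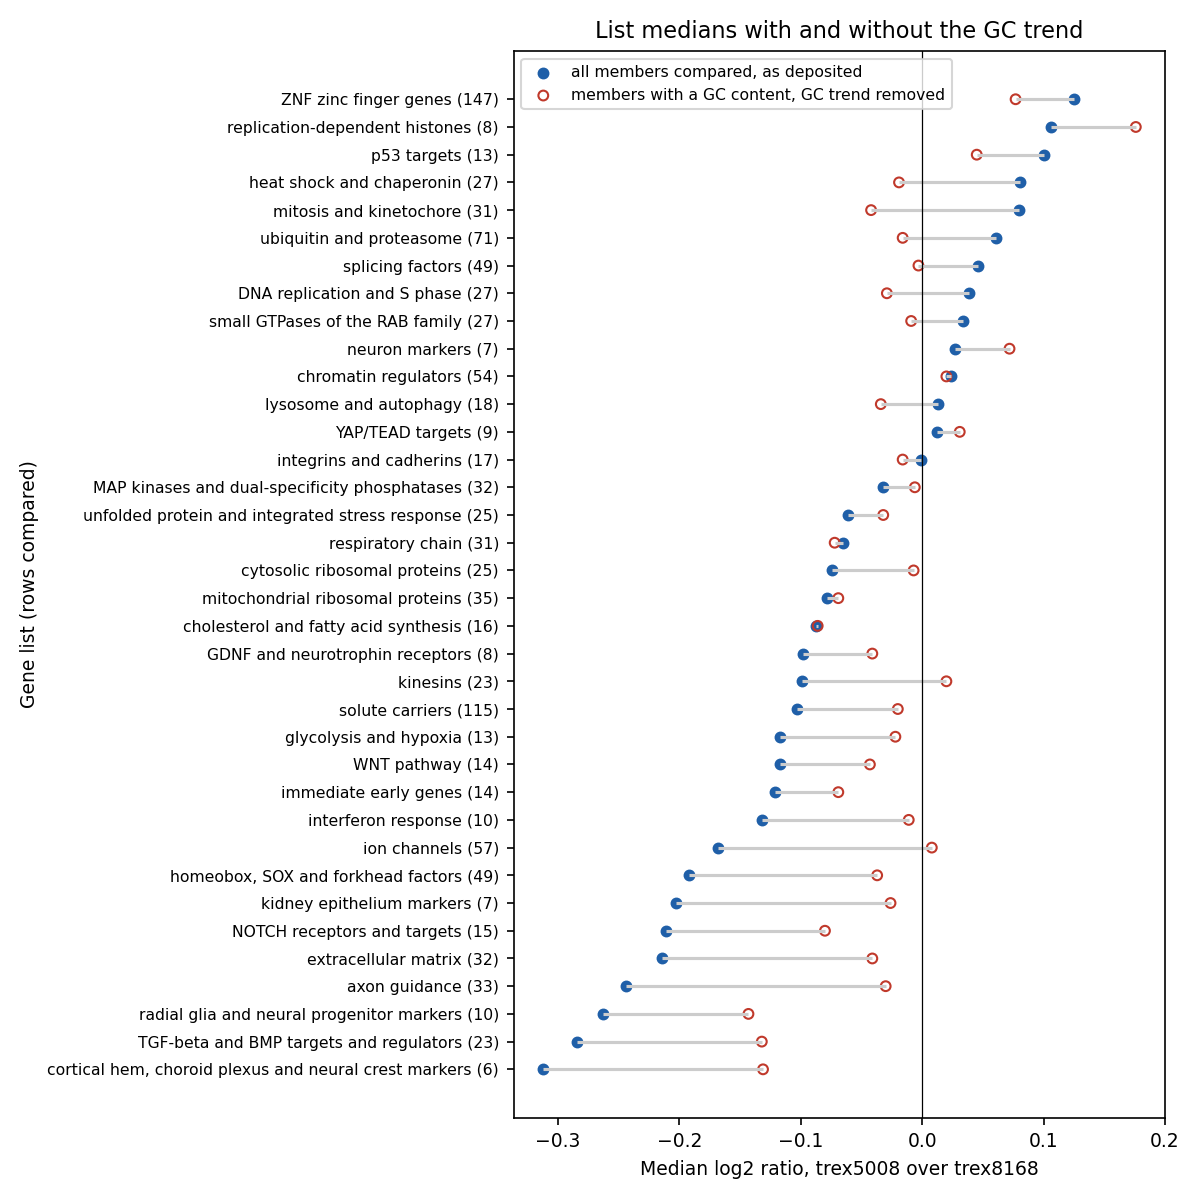
Median log2 ratio of trex5008 over trex8168 (horizontal axis) for 36 gene lists (vertical axis, number of rows compared in brackets); filled points use all members compared and open points the members with a GC content after removal of the trend. The filled points run from -0.31 to 0.13, and most open points lie closer to 0.

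The chromosomes differed by small amounts. Median ratios were lowest, among chromosomes with at least 92 rows, on 19 (-0.20), 22 (-0.16), 16 (-0.14) and 17 (-0.12) and highest on 4 (0.08). Longer loci had somewhat higher ratios, with a Spearman correlation across rows of 0.35 between the ratio and the log2 span. Rows annotated as pseudogenes had a median of 0.07 over 222 rows and antisense transcripts -0.06 over 257. No values without the GC trend were computed for chromosomes, locus span or these types. Whether they differ apart from GC content was not tested.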

How the data were processed

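RNA of HEK293FT cells was selected by polyA and sequenced from a directional kit, per the labels. Tools named in the submitters' processing notes are STAR 2.5.1b and Bowtie2 2.2.1, DESeq2 1.14.1 and DESeq, Cufflinks and bedtools, on hg19/GRCh37. The deposited signal values are means of normalised counts that the authors computed for each group. The deposited log2 fold changes and adjusted p-values compare each target with control. Every listed row has an adjusted p under 0.1 in some comparison, so other genes were not analysed here. A count test had been planned for counts per library, which were not used here.

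From these, log2 of (trex5008 + 1) over (trex8168 + 1) was computed for rows with a mean of at least 50, with pandas 2.3.3 in Python 3.11.15. The GC trend was a lowess curve with a fraction of 0.3 (statsmodels 0.14.6), added after the data were seen and checked on simulated data. Sequences and GC content were matched by symbol; of 5 symbols looked up in the promoter table, 2 were found. Named rows are the 15 highest and 15 lowest with a gene name, 12 and 12 protein-coding, 4 and 4 known by identifier, up to 4 members of each list in the direction of its median, neighbours within 500 kb, the 5 of highest mean, and those at the limits. Other rows named were chosen after their values were seen. The members and lists were chosen with earlier results of these data known.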

Additional observations from a re-analysis of the deposited data

Results flagged for a closer look

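Rows under the minimum mean of 50 were left out of the comparison, and 11 of them differed by at least 2-fold between the groups, with a mean of at least 50 and above control in the higher one. They are given as values. Towards trex8168, the log2 ratio of trex5008 over trex8168 was -6.27 for CATG00000013615.1 (means 0.56 and 119, control 0.62), -4.46 for CATG00000013817.1 (1.73 and 59.0, control 1.18) and -4.26 for CATG00000111502.1 (6.17 and 137, control 12.4). Among protein-coding rows it was -3.11 for CLEC1A, a C-type lectin (9.33 and 88.1, control 4.90), and -2.91 for KCNA5, the potassium channel Kv1.5 (9.15 and 75.2, control 13.0). It was -1.63 for VSTM2B (26.0 and 82.6, control 42.1), -1.60 for the scavenger receptor STAB1 (15.9 and 50.4, control 23.7) and -1.10 for the synaptogyrin SYNGR4 (34.7 and 75.8, control 44.2). Towards trex5008 it was 1.06 for CATG00000027281.1 (70.8 and 33.5, control 40.0), 1.32 for CATG00000020473.1 (74.2 and 29.1, control 29.1) and 1.68 for CATG00000048904.1 (85.0 and 25.9, control 24.2). The latter pair, CATG00000020473.1 and CATG00000048904.1, also had means of 75.3 and 70.7 in trex4039. KCNA5 and KCNA1, both on chromosome 12, differed in opposite directions, at -2.91 and 0.71.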

How the results depend on the processing

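No paired analysis was possible because the result comes from group means with no test, and no replicate could be left out for the same reason. The median ratio of all rows moved by less than 1 robust SD, a spread taken from percentiles of the ratios, under each alternative run. Of the rows past 1.5-fold, 31 higher in trex5008 and 82 higher in trex8168, the counts changed to 223 and 144 with a minimum mean of 10, to 290 and 170 with no minimum, and to 7 and 29 with a minimum of 200. The majority therefore changes side when rows of low mean are let in. With 10 added before the log2, 17 rows were higher in trex5008. At 2-fold the counts were 4 and 17, and with the difference of the deposited log2 fold changes 6 and 38. The deposited fold changes are an unlike measure that can be smaller than the ratios of group means, so these counts are not on 1 scale. Protein-coding rows alone gave 11 higher in trex5008. Removing the GC trend, an alternative chosen after seeing the data, left 29 of the protein-coding rows higher in trex8168, down from 57; the cause was not tested. No named row changed sign past the limit. With the difference of the deposited fold changes, 19 of 194 named rows moved by more than 1 robust SD of rows at a like mean. Among them were PKLR, then at 0.76, and SCNN1A, then at -1.82. Without the GC trend 52 of 167 moved that far. Depth is unknown, and rows with means under 100 are the least precise.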
